A study of Homo sapiens with 12 samples.

Results

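The transcripts of EWSR1, FLI1, DHX9 and TAF15 were followed in 12 RNA sequencing libraries of human Ewing sarcoma cell lines. They are 4 of the 56609 gene symbols in the deposited tables and were chosen by name: the genes joined in the EWS-FLI1 fusion, the helicase that the inhibitor YK-4-279 was made to keep off the fusion protein, and TAF15, a relative of EWSR1 in the FET family. Each symbol had a single entry in every library, and each passed the filter on low values in all groups.

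Ewing sarcoma grows in bone or soft tissue. The 4 groups, of 3 libraries each, were A4573-R (grown with YK-4-279, dose labelled 650 uM), A4573 parental (solvent DMSO), TC-71-R (YK-4-279, dose labelled 400 uM) and TC-71 parental (DMSO). All were cultured in RPMI with fetal bovine serum and HEPES. A4573 and TC-71 are lines from different tumours, and A4573-R and TC-71-R are their derivatives that resist the compound. The unit of the labelled doses is in doubt, because micromolar doses of that size are far above those usual for this compound. Every derivative library carried the compound and every parental library the solvent, so resistance and exposure cannot be told apart. The sources used here do not give whether a derivative is a single clone or whether the libraries of a group came from separate cultures. The p-values measure only the spread between these libraries, which may be technical.

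In Ewing sarcoma a translocation joins the first part of EWSR1, which encodes an RNA-binding protein with a strongly activating, low-complexity start, to the last part of FLI1, which encodes a transcription factor with an ETS DNA-binding domain. The fusion gene is read from the EWSR1 promoter, and its product activates or represses many genes. DHX9, also called RNA helicase A, unwinds RNA and DNA, links transcription factors to RNA polymerase II and binds EWS-FLI1. TAF15 resembles EWSR1, is found with the general transcription factor TFIID and is itself a fusion partner in another sarcoma. FLI1 from an intact allele is used mainly by blood and endothelial cells.

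The values are counts per gene, so they mix reads of the fusion transcript with reads of the intact genes. The ends of the EWSR1 exons at the joint show where the 2 kinds of transcript part. As background, the part of EWSR1 in the fusion is known to end with exon 7 in TC-71 and with exon 10 in A4573; the libraries were not read for these joints here. In GENCODE release 29 (GRCh38), EWSR1 exon 7 lies at chr22:29286923-29287134 and exon 10 at chr22:29292137-29292169, both on the plus strand. The capitals mark the 9 bases next to the joint.
EWSR1 exon 7, last 30 bases: gccaacagagcagcagctacgGGCAGCAGA
EWSR1 exon 10, last 30 bases: ccatggatgaaggaccagatcTTGATCTAG
With these joints, a fusion transcript of TC-71 would hold 1112 of the 2654 bases (41.9%) of the 17-exon EWSR1 transcript, and one of A4573 1364 bases (51.4%). A read inside these stretches is the same whether it came from the fusion or from the intact gene.

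Levels were taken as CPM, counts per 1000000 reads, as deposited. A library held 44.0 to 62.1 M reads on named genes (M, 1000000). EWSR1 was covered by 13644 to 21012 reads a library, FLI1 by 1420 to 3183, DHX9 by 16966 to 48260 and TAF15 by 6906 to 14069, so counting error weighs most on FLI1. Changes were tested with limma on log2(CPM + 1) over 14335 genes, with Benjamini-Hochberg adjustment over all of them and a threshold of 0.05. A large share of all genes passed in every comparison.

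In A4573-R all 4 genes fell, FLI1 by far the most. FLI1 mRNA fell by 41.6%, DHX9 by 22.3%, TAF15 by 16.4% and EWSR1 by 15.4% against A4573 parental. In TC-71-R the direction was mixed: DHX9 was 39.9% and EWSR1 10.2% higher than in TC-71 parental, FLI1 fell by 14.01%, and TAF15 did not pass. FLI1 was called lower in both derivatives. Of all tested genes, 34.1% were called lower in A4573-R and 39.6% in TC-71-R, and the share lower in both is not given here. In RNA from whole cultures, fewer cells with a transcript and less of it in each cell cannot be told apart.

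FLI1, at chr11:128686535-128813267, was at 21.9, 22.5 and 20.7 CPM in the A4573-R libraries, against 36.2, 37.0 and 38.1 CPM in A4573 parental. It was at 21.0, 19.3 and 20.6 CPM in TC-71-R, against 23.8, 23.6 and 23.4 CPM in TC-71 parental. Every derivative library lay below every library of its parent, and A4573 parental stood above all other groups. The log2 fold change was −0.75 (SE 0.04, 95% interval −0.84 to −0.66, limma adjusted p = 3.7e-10) in A4573-R and −0.21 (SE 0.04, −0.30 to −0.12, adjusted p = 0.00031) in TC-71-R. Among all tested genes the A4573-R change stood at the 4.88th percentile, counted from the most negative, and the TC-71-R change at the 33.0th.

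EWSR1, at chr22:29268009-29300525, was at 201, 201 and 212 CPM in A4573-R, against 236, 245 and 245 CPM in A4573 parental. It was at 202, 208 and 209 CPM in TC-71-R, against 187, 185 and 189 CPM in TC-71 parental. The groups did not overlap in either line, but the derivative was the lower one in A4573 and the higher one in TC-71. The log2 fold change was −0.24 (SE 0.03, 95% interval −0.31 to −0.17, limma adjusted p = 8.5e-06) in A4573-R and 0.14 (SE 0.03, 0.07 to 0.21, adjusted p = 0.0011) in TC-71-R. The rise in TC-71-R depended on the scaling of the libraries. It was 0.07 (adjusted p = 0.046) per 1000000 reads on named genes, and 0.04 (adjusted p = 0.22), so past no threshold, with quantile normalization.

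DHX9, at chr1:182839369-182887751, was at 445, 403 and 467 CPM in A4573-R, against 567, 562 and 563 CPM in A4573 parental. It was at 303, 266 and 304 CPM in TC-71-R, against 209, 205 and 209 CPM in TC-71 parental. No derivative library overlapped with its parent, and replicate 2 was the lowest library in each derivative. The log2 fold change was −0.37 (SE 0.05, 95% interval −0.48 to −0.25, limma adjusted p = 2.1e-05) in A4573-R and 0.48 (SE 0.05, 0.36 to 0.60, adjusted p = 8.2e-07) in TC-71-R. Without A4573-R replicate 2 the first was −0.31, and without TC-71-R replicate 2 the second was 0.54, and both passed.

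TAF15, at chr17:35713791-35864615, was at 128, 131 and 136 CPM in A4573-R, against 152, 164 and 156 CPM in A4573 parental. It was at 104, 90.6 and 103 CPM in TC-71-R, against 102, 105 and 108 CPM in TC-71 parental. The A4573 groups did not overlap, while those of TC-71 did, with TC-71-R replicate 2 the lowest of all 12. The log2 fold change was −0.26 (SE 0.05, 95% interval −0.36 to −0.15, limma adjusted p = 0.00022) in A4573-R and −0.09 (SE 0.05, −0.20 to 0.01, adjusted p = 0.10) in TC-71-R. The TC-71-R value passed per 1000000 reads on named genes (−0.16, adjusted p = 0.0068), with quantile normalization (−0.11, adjusted p = 0.049) and without TC-71-R replicate 1 (−0.12, adjusted p = 0.049), and was −0.03 without TC-71-R replicate 2.

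**Figure D1:**
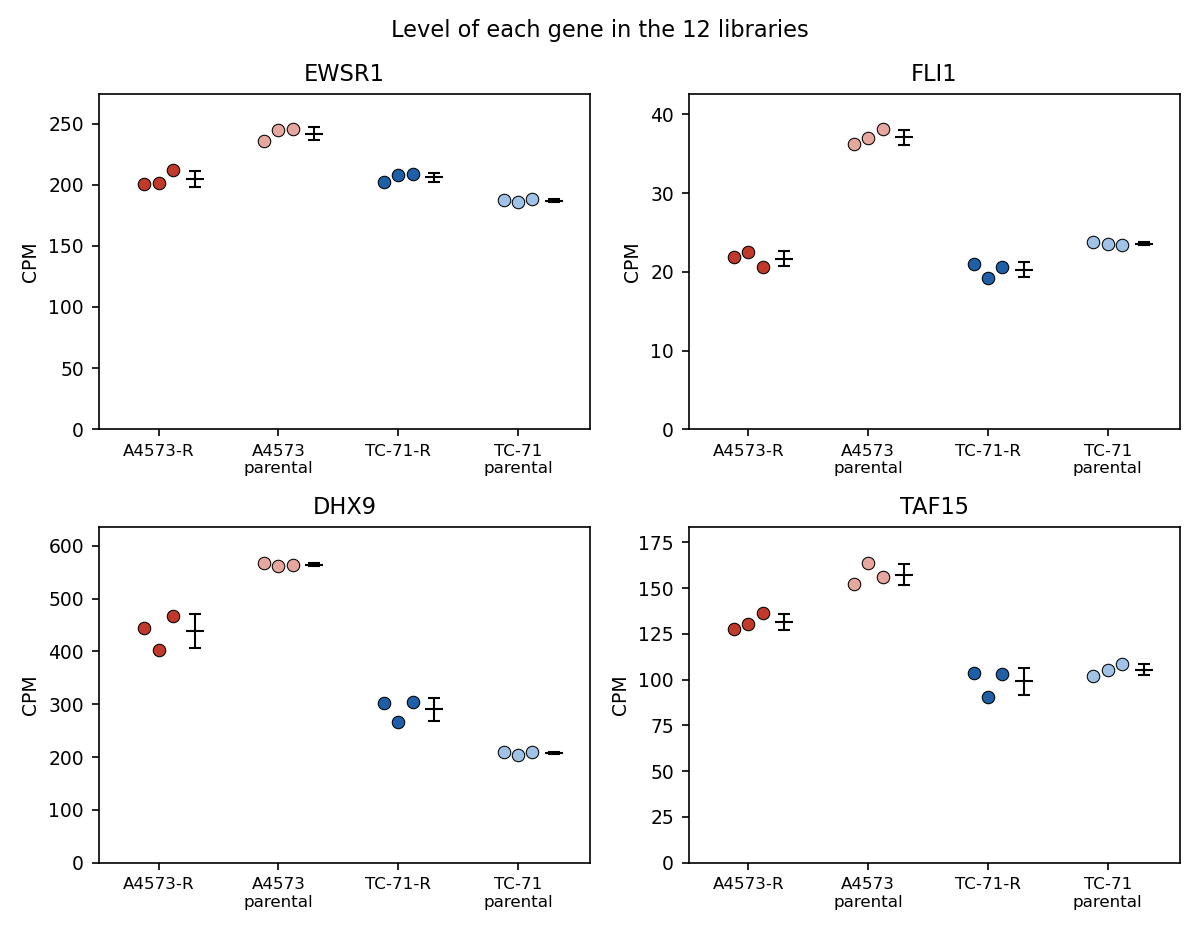
CPM (counts per 1000000 reads) of EWSR1, FLI1, DHX9 and TAF15 in each library, with a panel for each gene, the 4 groups along the x axis and the mean ± SD of 3 libraries as a black bar. A4573 parental is the highest group in every panel, and FLI1 lies between 19.3 and 23.8 CPM in the other 3 groups.

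Read against the whole table, the counts for A4573-R were 4 lower, 0 higher and 0 not passed, where 34.1% of all tested genes were called lower and 38.3% higher. For TC-71-R they were 1 lower (FLI1), 2 higher (EWSR1 and DHX9) and 1 not passed, where 39.6% of all genes were called lower and 38.8% higher. Libraries did not overlap for all 4 genes in A4573-R, each time with the derivative lower, as for 35.0% of all genes (39.7% were higher without overlap). In TC-71-R they did not overlap for 3 genes, 1 lower and 2 higher, beside 40.9% of all genes lower and 40.2% higher. Calls of this kind were thus common among all genes, and the sizes say more than the calls. The median absolute log2 fold change over all tested genes was 0.25 in A4573-R and 0.33 in TC-71-R. In A4573-R the change of FLI1 and that of DHX9 were larger than this, TAF15 lay just above it and EWSR1 just below. In TC-71-R that of DHX9 was larger, and those of FLI1, EWSR1 and TAF15 were smaller.

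The change in TC-71-R was then set against the change in A4573-R with the interaction term of the same fit. It was above 0 for all 4 genes: 0.85 (SE 0.08, limma adjusted p = 7.5e-08) for DHX9, 0.54 (SE 0.06, adjusted p = 6.8e-07) for FLI1, 0.38 (SE 0.05, adjusted p = 2.1e-06) for EWSR1 and 0.17 (SE 0.07, adjusted p = 0.039) for TAF15. Of all tested genes, 37.9% were called higher and 40.2% lower in this comparison. DHX9 had opposite changes in the 2 lines, and so did EWSR1, while FLI1 fell in both but by less in TC-71-R. The call of TAF15 was lost when any of 8 libraries was left out (0.13 to 0.17, adjusted p of up to 0.11), without the filter, per 1000000 reads on named genes and with quantile normalization (0.08, adjusted p = 0.28). All 4 values use the same libraries as the changes above.

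**Figure D2:**
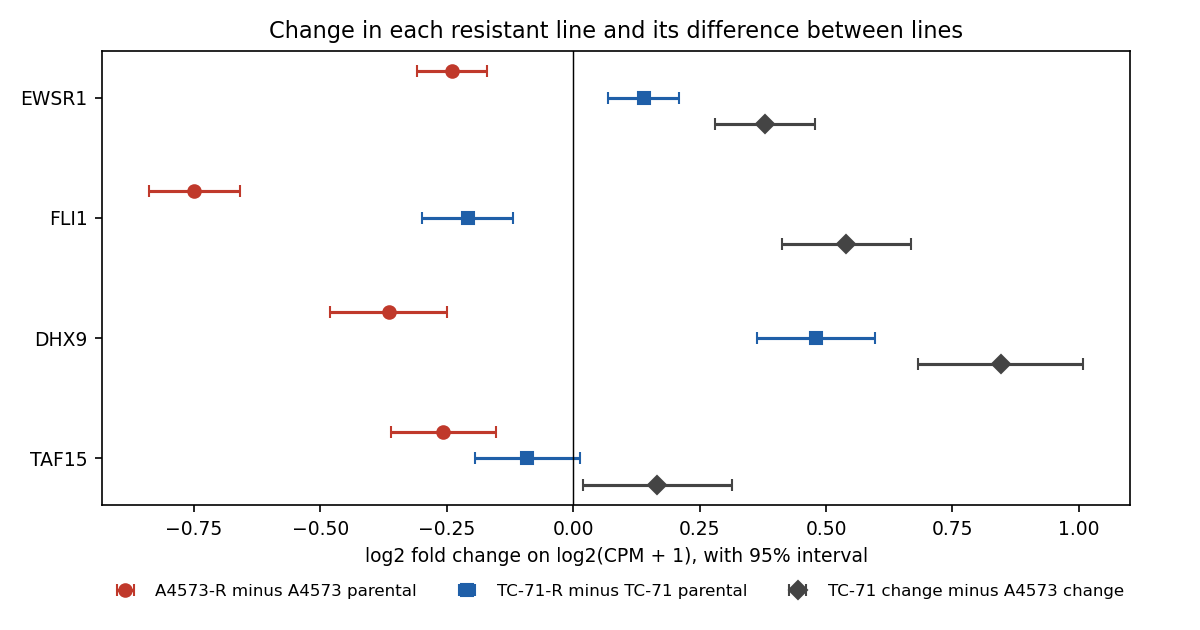
The log2 fold change on log2(CPM + 1) of each gene in A4573-R against its parent (red circles), in TC-71-R against its parent (blue squares) and the TC-71 change minus the A4573 change (grey diamonds), with 95% intervals from limma. DHX9 and EWSR1 lie on opposite sides of 0 in the 2 lines, and the TAF15 interval in TC-71-R, from −0.20 to 0.01, crosses 0.

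The parental lines already differed in all 4 genes. TC-71 parental, against A4573 parental, had 208 ± 2.60 and 564 ± 3.07 CPM of DHX9 (mean ± SD, n = 3 each), a log2 difference of −1.44. The other differences were −0.63 for FLI1 (23.6 ± 0.19 and 37.1 ± 0.94 CPM), −0.57 for TAF15 (105 ± 3.12 and 157 ± 5.84 CPM) and −0.37 for EWSR1 (187 ± 1.54 and 242 ± 5.35 CPM). All 4 were called lower, where 44.1% of all genes were called lower and 45.9% higher, with limma adjusted p of at most 2.5e-08. With quantile normalization the EWSR1 difference was −0.06 and did not pass (adjusted p = 0.089).

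Between the derivatives, EWSR1 and FLI1 were no longer called different. EWSR1 was at 206 ± 3.57 CPM in TC-71-R and 205 ± 6.68 CPM in A4573-R (log2 difference 0.01, 95% interval −0.06 to 0.08, limma adjusted p = 0.76). FLI1 was at 20.3 ± 0.92 and 21.7 ± 0.93 CPM (−0.09, −0.18 to −0.0014, adjusted p = 0.053). The libraries of these 2 groups overlapped for both genes. DHX9 (291 ± 21.7 and 438 ± 32.2 CPM, −0.59) and TAF15 (99.1 ± 7.37 and 132 ± 4.38 CPM, −0.41) were still lower in TC-71-R, with adjusted p of 4e-08 and 9.6e-07. In this comparison 45.5% of all genes were called lower and 43.7% higher. These comparisons share their libraries with the changes above and are not independent of them. The missing calls depended on the setting: with quantile normalization EWSR1 was 0.20 higher in TC-71-R (adjusted p = 8.7e-06) and FLI1 0.11 lower (adjusted p = 0.019). FLI1 also passed without A4573-R replicate 3 (−0.12, adjusted p = 0.014) or TC-71-R replicate 1 (−0.12, adjusted p = 0.032).

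The order of the groups therefore differed between genes. For FLI1 it ran A4573 parental, TC-71 parental, A4573-R and TC-71-R from high to low, and A4573-R and TC-71-R were neighbours that did not differ past the threshold. For EWSR1 it ran A4573 parental, TC-71-R, A4573-R and TC-71 parental, where TC-71-R and A4573-R again did not differ past it. This order of EWSR1 depended on the scaling. With quantile normalization the log2 difference from A4573 parental was −0.22 in A4573-R and −0.055 in TC-71 parental, so A4573-R was lowest. A4573-R and TC-71 parental were not compared by a test. DHX9 and TAF15 kept the lines apart, with A4573 parental above A4573-R and both above the TC-71 groups, and TC-71-R above TC-71 parental for DHX9, while for TAF15 those 2 groups did not differ past the threshold. Per kilobase of annotated exon, DHX9 had the highest value of the 4 in every group. It was 77.7, 99.9, 51.5 and 36.8 CPM per kilobase in A4573-R, A4573 parental, TC-71-R and TC-71 parental. FLI1 had the lowest value, at 2.65, 4.54, 2.48 and 2.89 CPM per kilobase. EWSR1 (18.1 to 23.4 as group means) and TAF15 (16.8 to 26.6) lay between. The exon length takes in every annotated transcript, of which a line may use few. It is 10326 bases for EWSR1, whose 17-exon transcript has 2654, and 5645 for DHX9. The order of EWSR1 and DHX9 therefore depends on the length used, and no ranking of their abundance is read from it.

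Ratios within a library do not depend on how the library was scaled, so they give the balance between the genes directly. They are changes in balance, not levels compared between genes of different length. The log2 ratio of FLI1 to EWSR1 was −3.19, −3.16 and −3.36 in A4573-R, against −2.70, −2.72 and −2.69 in A4573 parental. It was −3.26, −3.43 and −3.34 in TC-71-R, against −2.98, −2.98 and −3.01 in TC-71 parental. FLI1 was thus lower relative to EWSR1 in every derivative library than in any library of its parent, by 0.54 in A4573-R and 0.36 in TC-71-R on the log2 scale (exact permutation test, 2-sided, p = 0.1 each, the smallest that 3 against 3 libraries can give).

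The ratio of DHX9 to EWSR1 was lower in A4573-R and higher in TC-71-R than in any library of the parent. It was 1.15, 1.00 and 1.14 on the log2 scale in A4573-R, against 1.27, 1.20 and 1.20 in A4573 parental, a difference of −0.13. It was 0.58, 0.35 and 0.54 in TC-71-R, against 0.16, 0.14 and 0.15 in TC-71 parental, a difference of 0.34. Neither pair of groups overlapped (exact permutation p = 0.1 each), and without A4573-R replicate 2 the first difference was −0.08. The ratio of TAF15 to EWSR1 in A4573 was −0.64 ± 0.01 in A4573-R and −0.62 ± 0.04 in A4573 parental (exact permutation p = 0.6, overlapping groups). In TC-71 the ratio was −1.06 ± 0.12 in TC-71-R and −0.83 ± 0.04 in TC-71 parental, a difference of −0.23 without overlap (exact permutation p = 0.1). This difference was −0.16 without TC-71-R replicate 2 and −0.28 without TC-71-R replicate 1. The 6 ratio tests could not reach the threshold, and adjusted over the 6 the p was 0.12 for 5 of them and 0.6 for the other.

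**Figure D3:**
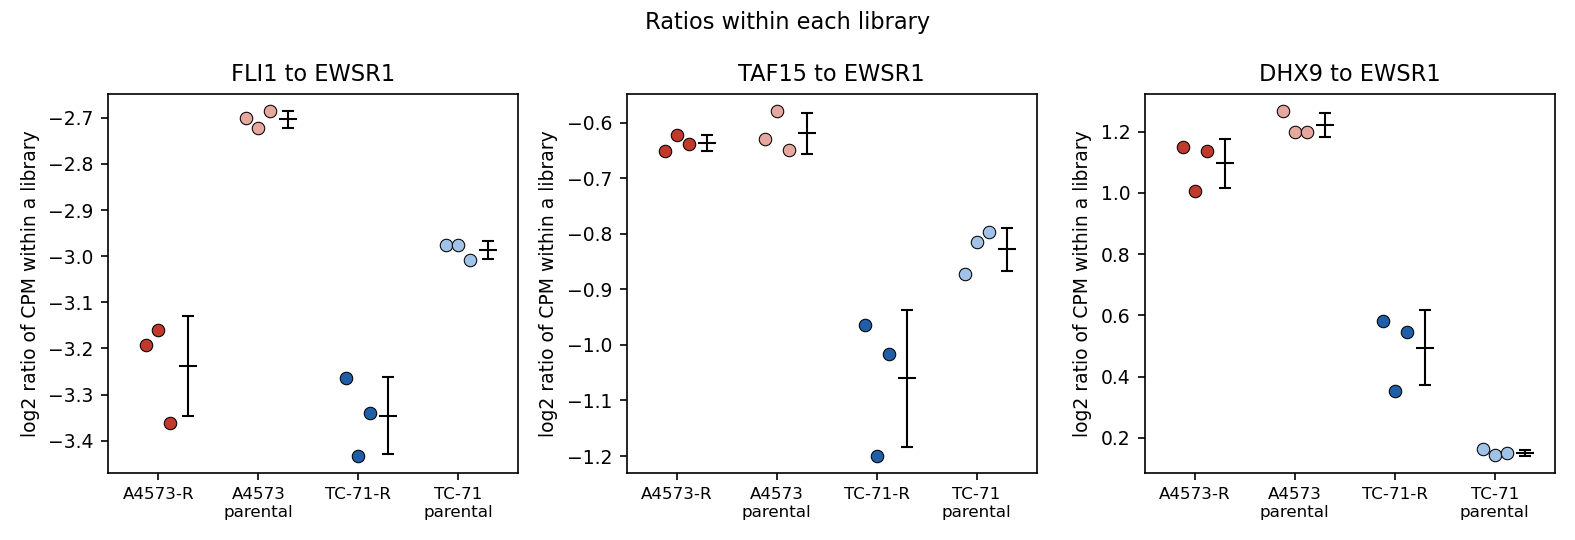
The log2 ratio of CPM within each library for FLI1, TAF15 and DHX9 to EWSR1, by group, with mean ± SD of 3 libraries as a black bar; the y axes do not start at 0. The FLI1 ratio is lower in A4573-R and TC-71-R than in their parents, by 0.54 and 0.36.

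The positions of the genes bear on what their counts hold. SENCR and AP001122.1, which overlap FLI1 on the other strand, were at 0 in every library. RHBDD3 overlaps the start of EWSR1 on the other strand and reached at most 20.9 CPM. The processed pseudogene DHX9P1 reached at most 0.11 CPM. TAF15 has a long annotated span that takes in or touches other genes on its strand, of which AP2B1 reached 284 CPM and RASL10B 51.7 CPM. The sources used here do not give whether the counting used strand, so reads of RHBDD3 and EWSR1 where they overlap cannot be told apart.

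The nearest protein-coding genes were taken, up to 4 before and 4 after the start of each gene. They were called in both directions for EWSR1 and FLI1 in each line, and for TAF15 in A4573-R. Their counts are read against all tested genes, of which 38.3% were called higher and 34.1% lower in A4573-R, and 38.8% and 39.6% in TC-71-R. Beside EWSR1, the antisense gene RHBDD3 was at 17.9 ± 1.08 CPM in A4573-R and 20.6 ± 0.24 CPM in A4573 parental (log2 fold change −0.20, limma adjusted p = 0.0011) and did not pass in TC-71-R (0.03, adjusted p = 0.58). GAS2L1, on the other side, did not pass in A4573-R (−0.06, adjusted p = 0.23) and rose in TC-71-R (22.3 ± 0.42 against 13.8 ± 0.17 CPM, 0.66). Of the 6 tested neighbours of EWSR1, 2 were higher, 2 lower and 2 not passed in A4573-R, and 3, 1 and 2 in TC-71-R. Beside FLI1, its relative ETS1 fell to 15.3 ± 0.55 CPM in A4573-R, against 29.6 ± 0.72 CPM in A4573 parental (−0.91, adjusted p = 1e-09). In TC-71-R, where FLI1 fell, ETS1 rose to 16.4 ± 0.80 CPM, against 3.82 ± 0.38 CPM in TC-71 parental (1.86, adjusted p = 1.6e-13). KCNJ1, on the other side of FLI1, was too low to test. The 5 tested neighbours of FLI1 were 1 higher, 2 lower and 2 not passed in A4573-R, and 3, 1 and 1 in TC-71-R. Of these 5, KIRREL3, ST3GAL4 and DCPS lie far off, 1683 to 2341 kilobases from FLI1.

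Among the genes near DHX9, NPL, which encodes an enzyme that breaks down sialic acid, rose to 14.9 ± 0.27 CPM in A4573-R, against 8.56 ± 0.38 CPM in A4573 parental (0.73, adjusted p = 1.5e-09). It fell to 5.77 ± 0.15 CPM in TC-71-R, against 7.495 ± 0.27 CPM in TC-71 parental (−0.33, adjusted p = 9.6e-06). SHCBP1L, on the other side, was listed at 0 in every library. The 5 tested neighbours of DHX9 were 4 higher, 0 lower and 1 not passed in A4573-R, and 0 higher, 3 lower and 2 not passed in TC-71-R. With most genes called and 5 neighbours, nothing is read from these counts. The 4 genes taken after the start of TAF15 lie inside its annotated span, and AP2B1 overlaps its start, so genes beyond its far end were not looked at. AP2B1, which encodes a subunit of the clathrin adaptor, rose in A4573-R (272 ± 11.9 against 232 ± 0.85 CPM, 0.22) and did not pass in TC-71-R (−0.06, adjusted p = 0.11). RASL10B fell in A4573-R (36.8 ± 1.03 against 51.3 ± 0.58 CPM, −0.47) and in TC-71-R (13.8 ± 1.18 against 21.0 ± 0.31 CPM, −0.58). The 4 tested genes in or near TAF15 were 2 higher, 1 lower and 1 not passed in A4573-R, and 0, 2 and 2 in TC-71-R.

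The promoters of EWSR1, which also reads the fusion gene, and DHX9 are shown as those of the 4 genes that had an entry in the promoter table. They come from RefSeq (GRCh38.p14) and run from 250 bases before to 50 after the start, 5′ to 3′ on the plus strand, at chr22:29268018-29268317 and chr1:182839097-182839396. The RefSeq start of EWSR1 lies after its GENCODE start, so the EWSR1 window is inside the gene span given above. RHBDD3, on the other strand, ends at 29268209 within this window. Capitals mark GGAA, the core that ETS factors bind, on either strand (TTCC on the strand shown).
EWSR1 promoter: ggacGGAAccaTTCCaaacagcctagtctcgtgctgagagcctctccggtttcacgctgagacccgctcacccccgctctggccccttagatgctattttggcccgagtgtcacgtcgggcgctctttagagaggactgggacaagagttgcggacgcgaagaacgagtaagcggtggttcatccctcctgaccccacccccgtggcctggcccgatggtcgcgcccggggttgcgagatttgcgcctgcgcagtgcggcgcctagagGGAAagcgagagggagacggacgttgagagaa
DHX9 promoter: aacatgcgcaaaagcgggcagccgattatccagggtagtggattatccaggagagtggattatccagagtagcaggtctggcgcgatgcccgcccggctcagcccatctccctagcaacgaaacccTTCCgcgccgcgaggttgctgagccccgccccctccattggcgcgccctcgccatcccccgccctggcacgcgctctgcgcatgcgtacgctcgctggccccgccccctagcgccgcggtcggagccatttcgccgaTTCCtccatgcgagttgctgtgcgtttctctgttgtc
GGAA occurred 3 times in the EWSR1 window and 2 times in the DHX9 window, where the median of 35116 promoters of the same length was 3 and 95.5% held at least 1. Neither window held the fuller ETS motif CCGGAAG (in 10.3% of all promoters), the repeat GGAAGGAA (3.67%) or the TATA box TATAAA (11.5%), searched on both strands. The motif GGGCGG, bound by SP1, occurred 4 times in the DHX9 window and 0 times in that of EWSR1, and was in 45.0% of all promoters. GGAA lies within CCGGAAG and GGAAGGAA, so these counts overlap. GC content was 62.7% for EWSR1 and 65.3% for DHX9, with a median of 58.7% over all promoters. A match is a description of letters and not a site of binding.

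The other genes of this system were described by lists. Over all tested genes the median log2 fold change was 0.02 in A4573-R and −0.0033 in TC-71-R, and in the shares given above 38.3% and 38.8% were called higher and 34.1% and 39.6% lower. Of the 24 chromatin and transcription partners of EWS-FLI1, 12 rose, 8 fell and 4 did not pass in A4573-R (median 0.10), and 11, 9 and 4 in TC-71-R (median 0.06). Per 1000000 reads on named genes the TC-71-R counts were 8 higher and 11 lower, with a median of −0.0065. JUN, which encodes a subunit of AP-1, rose in A4573-R (57.4 ± 4.73 against 10.7 ± 0.74 CPM, log2 fold change 2.32) and fell in TC-71-R (36.7 ± 3.02 against 58.1 ± 1.63 CPM, −0.65). SMARCC1, which encodes a BAF subunit, fell in A4573-R (−0.15) and rose in TC-71-R (0.65). Of 11 tested factors of 12 that splice the fusion transcript or set the stability of transcript or protein, 1 rose, 7 fell and 3 did not pass in A4573-R (median −0.16), and 6, 3 and 2 in TC-71-R (median 0.16, and 0.07 to 0.20 over the alternatives). HNRNPF, a relative of the splicing factor HNRNPH1, fell in A4573-R (−0.86) and rose in TC-71-R (0.39). TRIM8, which encodes a ubiquitin ligase that degrades EWS-FLI1, rose in A4573-R (0.15) and fell in TC-71-R (−0.41). U2AF2, which encodes a subunit of the splicing factor U2AF, fell in A4573-R (−0.10) and rose in TC-71-R (0.32).

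Of 19 genes whose products bind DHX9, 3 rose, 9 fell and 7 did not pass in A4573-R (median −0.13), and 10, 7 and 2 in TC-71-R (median 0.09). Over the alternatives the medians were −0.17 to −0.07 in A4573-R, with −0.07 without A4573-R replicate 2 and −0.08 without A4573 parental replicate 1 or 3, and 0.0067 to 0.24 in TC-71-R. POLR2A, the gene of the largest RNA polymerase II subunit and also in the list of EWS-FLI1 partners, fell in A4573-R (−1.06) and did not pass in TC-71-R (−0.11, limma adjusted p = 0.21). NUP98, which encodes a nuclear pore protein, fell in both (−0.80 and −0.19). TOP2A, which encodes a topoisomerase, rose in both (0.20 and 1.74). Among 15 tested relatives of DHX9 of the DEAH family, of 17 listed, 1 rose, 11 fell and 3 did not pass in A4573-R (median −0.23), and 3, 7 and 5 in TC-71-R (median −0.09, and −0.16 to −0.05 over the alternatives). DHX37, which acts in ribosome assembly, fell in both (−0.32 and −0.86), DHX33 fell in A4573-R (−0.66) and DHX36, which unwinds G-quadruplexes, fell in TC-71-R (−0.51). DHX33 did not pass in TC-71-R (−0.09, adjusted p = 0.095), nor DHX36 in A4573-R (−0.04, adjusted p = 0.46).

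Of 12 tested FET and ETS relatives of 13 listed, 5 rose, 5 fell and 2 did not pass in A4573-R (median −0.0085), and 8, 3 and 1 in TC-71-R (median 0.19). Over the alternatives the medians were −0.19 to 0.02 in A4573-R, above 0 without any 1 of A4573-R replicates 2 and 3 and A4573 parental replicates 2 and 3 (0.0047 to 0.0246), and −0.04 without A4573-R replicate 1 and −0.06 without A4573 parental replicate 1, and 0.12 to 0.39 in TC-71-R. ETS2 rose in A4573-R (70.8 ± 1.81 against 19.7 ± 0.37 CPM, 1.79) and in TC-71-R (214 ± 5.19 against 39.9 ± 0.25 CPM, 2.395). FEV, which is a rare fusion partner of EWSR1, rose in TC-71-R (14.7 ± 0.67 against 2.397 ± 0.29 CPM, 2.21) and did not pass in A4573-R (0.12, adjusted p = 0.078). ETS1 is described above as a neighbour of FLI1. Of 15 TFIID subunits, the partners of TAF15, 6 rose, 5 fell and 4 did not pass in A4573-R (median 0.03), and 5, 8 and 2 in TC-71-R (median −0.14). Over the alternatives the medians were −0.02 to 0.06 in A4573-R, with −0.0001 without A4573-R replicate 1 and −0.01 without A4573 parental replicate 1, and −0.21 to −0.11 in TC-71-R. TAF1 fell in TC-71-R (−1.66) and did not pass in A4573-R (−0.09, limma adjusted p = 0.051). TAF12 and TAF7 rose in A4573-R (1.15 and 0.37) and fell in TC-71-R (−0.41 and −0.87).

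Targets of the fusion were counted last. Of 29 genes activated by EWS-FLI1, 8 rose, 16 fell and 5 did not pass in A4573-R (median −0.13), and 14, 10 and 5 in TC-71-R (median 0.10, and 0.03 to 0.15 over the alternatives). GRIK3, a glutamate receptor gene, rose in TC-71-R (89.0 ± 4.39 against 1.14 ± 0.17 CPM, 5.39) and fell in A4573-R (0.051 ± 0.054 against 0.99 ± 0.084 CPM, −0.92). GLI1, a transcription factor gene of the Hedgehog pathway, rose in A4573-R (2.34) and fell in TC-71-R (−0.94). PADI2 rose in TC-71-R (1.74) and did not pass in A4573-R, where it was barely present (0.044 against 0.025 CPM). Of 15 genes repressed by EWS-FLI1, 4 rose, 9 fell and 2 did not pass in A4573-R (median −1.07), and 9, 4 and 2 in TC-71-R (median 0.47). Over the alternatives the medians were −1.14 to −0.45 in A4573-R and 0.20 to 0.81 in TC-71-R, nearest 0 with a pseudocount of 5. THBS1, which encodes a matrix protein, fell in A4573-R (−2.78). It did not pass in TC-71-R, where it was barely present (0.072 against 0.043 CPM). TNC, another matrix gene, rose in A4573-R (0.93) and fell in TC-71-R (−2.64). IGFBP3, which encodes a binding protein of insulin-like growth factors, rose in both (0.43 and 2.45). Changes of genes under a few CPM, such as GRIK3 in A4573-R, are understated on this scale. Whether a list differed between the lines was not tested.

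**Figure D4:**
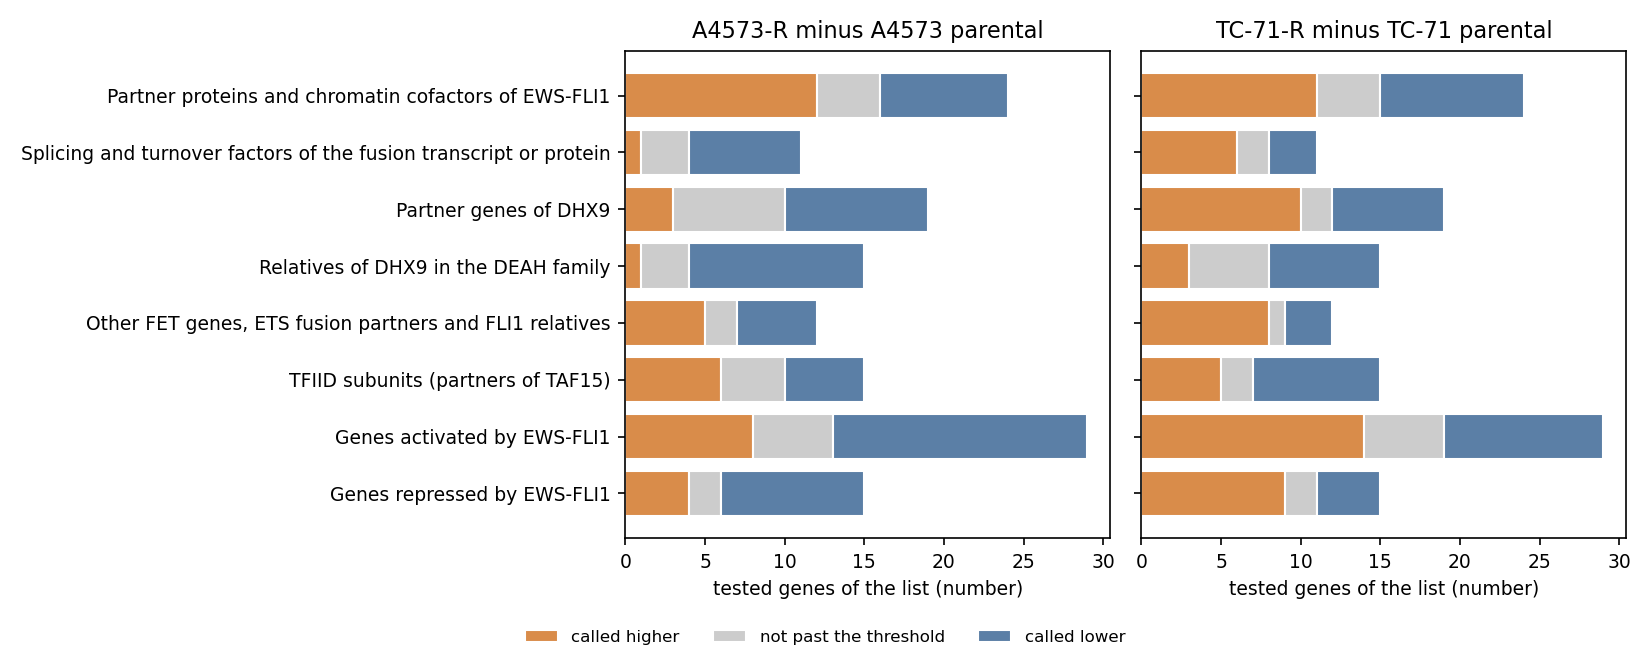
The number of tested genes of each list called higher (orange), not past the threshold (grey) or called lower (blue) by limma, in A4573-R against A4573 parental on the left and in TC-71-R against TC-71 parental on the right. Among the 15 tested DEAH relatives of DHX9, 11 were lower in A4573-R and 7 in TC-71-R, where 34.1% and 39.6% of all tested genes were called lower.

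Across the 12 libraries, each gene was set beside the 10579 tested genes with a mean of at least 5 CPM, and the 5 with the highest Pearson r on log2(CPM + 1) were taken as most alike. For DHX9 these were EHD1, RTL8C, LASP1, SFXN1 and RAVER1, with r of 0.997 to 0.998. EHD1 shows the shape: it was at 44.7, 60.6, 24.9 and 15.5 CPM in A4573-R, A4573 parental, TC-71-R and TC-71 parental. For FLI1 they were PI15, the kinase gene LYN, DNAJC21, the growth hormone receptor gene GHR and the corepressor gene TLE3, with r of 0.985 to 0.993. PI15 was at 9.29, 63.9, 5.58 and 12.2 CPM in the same order of groups, so a wider range than FLI1 has. For EWSR1 they were AC006329.1, MCM8, UBE3C, PPIF and GEMIN5 (r of 0.984 to 0.989), and for TAF15 PLOD1, CMTM7, LANCL2, PHTF1 and KIF2A (r of 0.986 to 0.990). Among the 4 genes themselves, DHX9 and TAF15 were most alike (r = 0.89) and FLI1 and DHX9 least (r = 0.62). With 12 libraries in 4 groups these values mostly follow the group means, and they are a description.

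The labelled cell type was checked against its markers. Of 7 Ewing sarcoma genes, 6 were well above the filter. NR0B1 was at 61.0, 86.6, 200.1 and 186.9 CPM in A4573-R, A4573 parental, TC-71-R and TC-71 parental, and NKX2-2 at 36.0, 28.5, 20.1 and 18.8 CPM. The list's summed level was 758 to 802 CPM in A4573-R, 966 to 1003 in A4573 parental, 1972 to 2002 in TC-71-R and 1597 to 1605 in TC-71 parental. The lower sum in A4573-R follows CCND1, at 348.6 CPM there and 633.2 CPM in A4573 parental. STEAP1 (43.1 and 57.4 CPM) and NR0B1 were also lower in A4573-R. PRKCB (182 and 95.9 CPM), BCL11B (110.5 and 77.25 CPM) and NKX2-2 were higher there. CD99, the surface marker of the tumour, was absent, at 0.0145 CPM at most. All 15 protein-coding genes of its pseudoautosomal region, whose sequence X and Y share, were at or below 0.0266 CPM, so CD99 cannot be judged from these tables.

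Markers of cells that use intact FLI1 were low. Of 10 blood cell genes, 3 were at 0 throughout and 2 reached 1 CPM in any library, and their summed level was 2.46 to 3.37 CPM in A4573-R, 1.00 to 1.08 in A4573 parental, 1.09 to 1.43 in TC-71-R and 1.13 to 1.28 in TC-71 parental. Of 8 endothelial genes only EGFL7 reached 1 CPM, and PECAM1 and CDH5, which define the type, were at most 0.039 and 0.77 CPM. The endothelial sum was 20.02 to 21.3, 12.5 to 12.5, 29 to 33.9 and 22.4 to 25.1 CPM in the same order of groups, nearly all of it EGFL7. The blood sum in A4573-R was mostly ITGA2B (2.24 CPM there and 0.74 CPM in A4573 parental). The part of such cells in the FLI1 values was not tested. The 6 fibroblast genes, led by the collagen genes COL1A2 and COL3A1 in A4573, summed to 510 to 518, 656 to 678, 108 to 110 and 96.0 to 96.3 CPM, and their part in the results was not tested. These sums hide opposite movements. In A4573-R DCN (21.45 against 17.61 CPM) and PDGFRA (4.755 against 1.575 CPM) were higher than in A4573 parental, and the other members were lower. In TC-71-R COL3A1 was lower than in TC-71 parental (31.25 against 69.51 CPM), and the others, such as DCN (30.45 against 3.96 CPM), were higher.

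**Figure D5:**
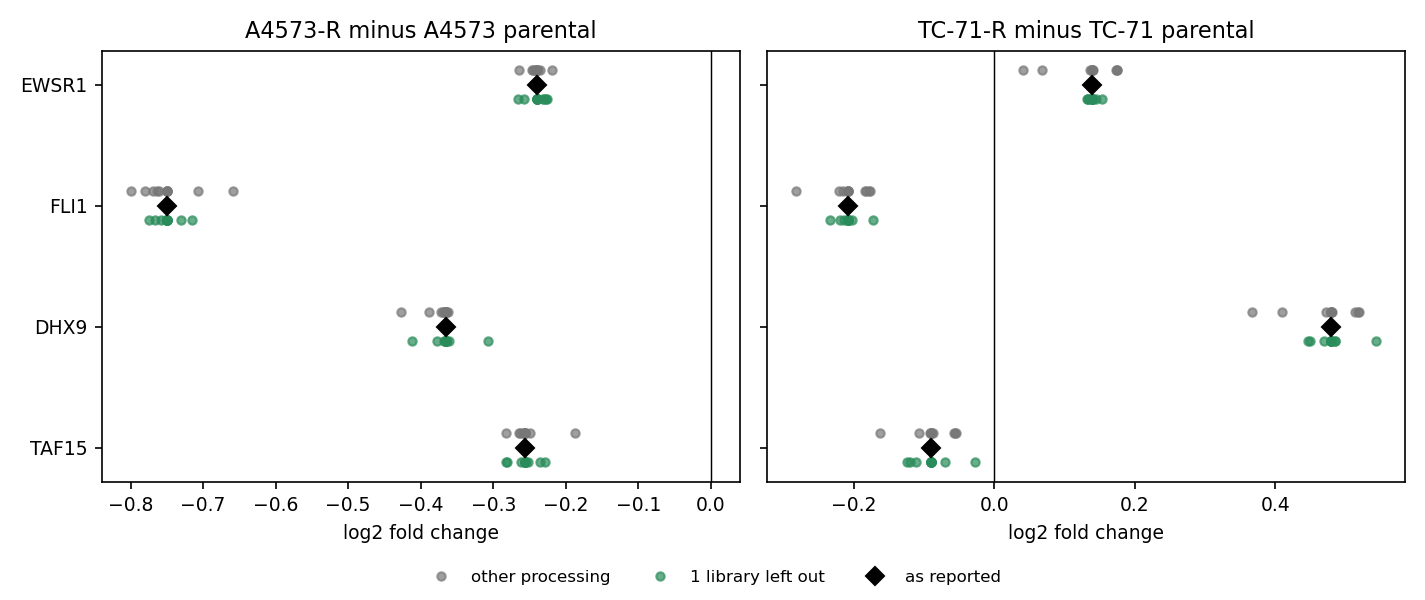
The log2 fold change of each gene in A4573-R (left) and TC-71-R (right) against its parent as reported (black diamonds), with other processing (grey) and with 1 library left out (green). All values of FLI1 lie below 0 in both lines, from −0.80 to −0.66 and from −0.28 to −0.17, and no value changes sign.

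The plot of alternatives shows how far the values of the 4 genes moved. Many of the alternatives could not move a change at all. These altered only the filter, the replicate block or the groups fitted, or left out a library of the other line. They bear on the p-value and not on the size. Over 23 alternatives the log2 fold change in A4573-R ran from −0.80 to −0.66 for FLI1, −0.43 to −0.31 for DHX9, −0.28 to −0.19 for TAF15 and −0.27 to −0.22 for EWSR1. In TC-71-R it ran from −0.28 to −0.17 for FLI1 and 0.37 to 0.54 for DHX9, while EWSR1 (0.04 to 0.18) and TAF15 (−0.16 to −0.03) came close to 0.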

How the data were processed

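Total RNA was sequenced in 12 libraries as paired ends of 100 bases, per the labels' protocols. Trimmomatic, STAR 2.4, HTSeq, edgeR and GRCh38 are named in the submitters' processing notes; strand, kit selection and gene annotation are not given in the sources used here. The deposited signal is CPM on library sizes that also count 5 entries with no gene name (30.6% to 42.0% of reads), times a scaling factor of 0.894 to 1.06. These entries were left out. Every value was a whole multiple of the value of 1 read within 0.001 (100% of values), which gave reads for the count tests.

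Rows of one symbol were summed. A gene was tested if it reached 1 CPM in 3 or more libraries, with limma 3.58.1 (R 4.3.3) on log2(CPM + 1), a pseudocount that pulls changes of low genes towards 0, with 4 group means and a variance trend. edgeR 4.0.16 and DESeq2 1.42.0 on the recovered reads were alternatives, with other scalings, filters and each library left out. The steps were tested on simulated data. Any 2 libraries of a group differed beyond sampling noise, with a chi-square per degree of freedom of 2.31 to 6.52 in the parental groups and 9.35 to 35.6 in the derivatives (highest for TC-71-R replicates 2 and 3), while limma uses 1 spread per gene for all groups.

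The 4 genes and the lists were chosen with earlier results of these data known. From each list the text names up to 3 genes with the largest change past the threshold in either line and at least 5 CPM; for each of the 4 genes it names the 5 most alike and the nearest neighbour on each side. Positions are from GENCODE release 29.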

Additional observations from a re-analysis of the deposited data

Results flagged for a closer look

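The change in TC-71-R differed from the change in A4573-R for each of the 4 genes by the interaction term of the limma fit. In this comparison 37.9% of all tested genes were called higher and 40.2% lower, so such a call was common. On the log2 scale the difference was 0.38 for EWSR1, 0.54 for FLI1, 0.85 for DHX9 and 0.17 for TAF15. DHX9 kept this call under all 22 alternatives, with values of 0.78 to 0.91, as did FLI1 (0.48 to 0.62) and EWSR1 (0.26 to 0.44). For TAF15 the difference ran from 0.08 to 0.23, with adjusted p of 0.0013 to 0.28.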

How the results depend on the processing

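Alternatives were set up for the values of the 4 genes, their ratios and the counts over all genes. Of these, 589 stayed as reported, 13 lost a call, 7 gained one and 3 turned the sign of a value near 0. Many of the alternatives could change the p-value of a gene but not the size of its change, so these totals do not measure stability. A value of the 4 genes stayed if it kept direction and side of the threshold. A ratio was judged on direction alone, as its test could not reach the threshold, and a count on its size. The list medians have their own ranges in the text, and the neighbours were not recomputed. The counts of called genes stayed within 1.5 times of the reported ones, at 10389 in A4573-R and 11248 in TC-71-R. Quantile normalization moved the most. With it EWSR1 lost its call in TC-71-R (0.040) and between the parental lines (−0.055) and gained one between the derivatives (0.20). FLI1 gained one between the derivatives (−0.11), TAF15 gained one in TC-71-R (−0.11) and the TAF15 difference between the changes lost its own (0.081). Per 1000000 reads on named genes, TAF15 gained a call in TC-71-R (−0.16) and its difference between the changes lost it (0.097), and without the filter that difference (0.17) lost it too. The causes were not tested. With 1 library left out, the TAF15 difference between the changes was 0.13 to 0.23, lost without any of 8 libraries, and TAF15 in TC-71-R was −0.12 to −0.028. Between the derivatives, EWSR1 was −0.0032 to 0.038 and FLI1 −0.12 to −0.056. The log2 ratio of TAF15 to EWSR1 in A4573 was −0.033 to 0.0026.

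The replicate numbers were not seen to pair libraries: deviations of same-numbered libraries correlated at −0.097 to 0.17, and those of other libraries at −0.18 to 0.16. The highest value was that of replicate 2 of A4573-R with replicate 2 of TC-71-R. Whether libraries shared a batch was not tested. A replicate block changed no call of the 4 genes, with adjusted p of 4.8e-09 (FLI1) and 0.00029 (TAF15) in A4573-R, and 10422 genes called there. FLI1 rests on the fewest reads, and 3 libraries a group limit every value.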
